A study of Mus musculus with 19 samples.

Results

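The genes described here are Myc and 34 genes of ribosome biogenesis, followed in mouse hepatic stellate cells (HSCs) over the first days of culture. The 35 genes were taken from a fixed list of symbols and matched to the Ensembl identifiers of the deposited count table, where 35 of 35 were found among 55487 genes. All 35 passed the filter on low counts that left 15138 genes for testing. The list was divided by role into Myc, 6 nucleolar proteins with several functions, 4 proteins of box C/D and 4 of box H/ACA small nucleolar ribonucleoproteins (snoRNPs), 3 subunits of RNA polymerase I, 7 factors of the small ribosomal subunit and 10 of the large one.

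Myc is a transcription factor that pairs with Max, binds the DNA motif CACGTG, called the E-box, and is known as a driver of cell growth, with ribosome production among its best known outputs. Ribosomes are built in the nucleolus, where RNA polymerase I makes the precursor of the ribosomal RNAs, snoRNPs modify it, and a large set of helicases, GTPases and scaffold proteins trims it and assembles it with the ribosomal proteins. HSCs are the vitamin A-storing cells of the liver, which turn from a quiescent state into myofibroblasts after liver injury or plating.

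The HSCs came from healthy male Balb/c mice of 23 to 24 weeks and were isolated by sorting on their ultraviolet signal. Freshly isolated cells (0 h, 2 samples) were collected without culture. All others were sorted into collagen-coated 24-well plates in DMEM with 10% fetal bovine serum, with new medium at 3 h and 24 h, and were collected at 3, 6, 12, 18 and 96 h (3 samples each) or 24 h (2 samples). Each sample is an independent repeat made of 2 technical repeats, no sample received any other treatment or carried an altered gene, and the labels give a replicate number and an isolation date to every sample.

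RNASeq libraries were made with a kit that primes at the 3′ end of transcripts, and the deposited values are raw counts per gene. Total counts lay between 2073171 and 7690892 per sample, so the level of 3 counts, taken as the floor of detection, lay between 0.386 and 1.51 CPM, counts relative to the total of the library. Levels below are CPM scaled by TMM, edgeR's correction for differences in composition, and they are compared between timepoints of a gene and never between genes. Stellate cell markers carried a summed 30440 CPM at 0 h, with 0 of 12 markers lacking counts, and 5215 CPM at 12 h. Hepatocyte markers fell from a sum of 6158 CPM (3915 and 8402 in the 2 samples) at 0 h to between 140 and 221 CPM at 12 h, and Kupffer cell and leukocyte markers from 489.5 to 40.3 CPM. Sinusoidal endothelial markers, 1 of 12 without counts at 0 h, summed to 1208 CPM at 0 h (980.2 and 1435), 2750 at 3 h (1401 to 4829), 459 at 12 h (206 to 874) and 88.8 at 96 h (23.3 to 215). At 3 h none of these 12 was called by edgeR or DESeq2 (2 were higher at an unadjusted p under 0.05). The share of counts from the mitochondrial genome went from 13.3% at 0 h to 3.92% at 12 h. These shifts run alongside the comparisons below, and their part in the results was not tested. In bulk samples, fewer cells of a type and less RNA per cell cannot be told apart.

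Where the promoters of these genes hold the motif that Myc and Max bind was read from RefSeq (GRCm38.p6), in windows of 300 bases that reach from 250 before to 50 after the transcription start. Of the 35 genes, 29 had such an entry, and Myc, Npm1, Fbl, Rrp12, Bop1 and Rrs1 did not. CACGTG, which reads the same on both strands, was present in 7 of the 29, or 24.1%. It was present in 11.6% of the 9683 tested genes with an entry and 8.09% of all 27025 genes with an entry. In lists read below, it was present in 23.5% of other small subunit factors, 10.8% of other large subunit factors and 23.5% of other RNA polymerase I genes. The share was 10.3% for ribosomal proteins, 35.7% for the MYC network and 44% for other MYC target genes. The 7 windows that hold the motif are shown. Each runs 5′ to 3′ along the strand of the gene, and the capitals mark the E-box.
Mybbp1a (chr11:72441347-72441376, plus strand, motif starting at base 41 of the transcript): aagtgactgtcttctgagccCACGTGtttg
Wdr43 (chr17:71616220-71616249, plus strand, motif starting at base 18): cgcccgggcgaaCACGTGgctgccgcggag
Utp20 (chr10:88826765-88826794, minus strand, motif starting at base 38): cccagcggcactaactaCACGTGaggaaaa
Tsr1 (chr11:74898092-74898121, plus strand, motif starting at base 25): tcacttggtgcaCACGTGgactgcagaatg
Pes1 (chr11:3963965-3963994, plus strand, motif starting at base 3): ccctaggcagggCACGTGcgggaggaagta
Nle1 (chr11:82908355-82908384, minus strand, motif starting at base 24): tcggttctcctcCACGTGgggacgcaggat
Nop2 (chr6:125131811-125131840, plus strand, motif starting 60 bases before the first base of the transcript): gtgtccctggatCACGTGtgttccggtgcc

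In 6 of these 7 windows the motif began within the first 41 bases of the transcript, and in Nop2 it lay upstream. The related motif CACGCG, searched on both strands, was present in 10 of the 29 genes, or 34.5%, against 19.8% of tested genes. A match of letters is a description of the sequence and shows neither binding nor regulation.

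The first question was when the genes of ribosome production changed after plating. Myc and most of the ribosome biogenesis genes were higher in culture than in freshly isolated HSCs by 6 h, stood highest at 12 or 18 h, and were mostly lower again at 96 h. The summed level of the 35 genes was 1926 CPM at 0 h (1796 and 2055 in the 2 samples), 5517 at 3 h, 10480 at 6 h, 14370 at 12 h (13910 to 15120), 12380 at 18 h, 8674 at 24 h and 3838 at 96 h. Relative to 0 h this was 2.87-fold at 3 h, 5.44-fold at 6 h, 7.46-fold at 12 h and 1.99-fold at 96 h, and at each cultured timepoint the lowest sample lay above both 0 h samples. As a share of all counts the 35 genes went from 0.179% at 0 h to 1.43% at 12 h and 0.394% at 96 h.

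**Figure D1:**
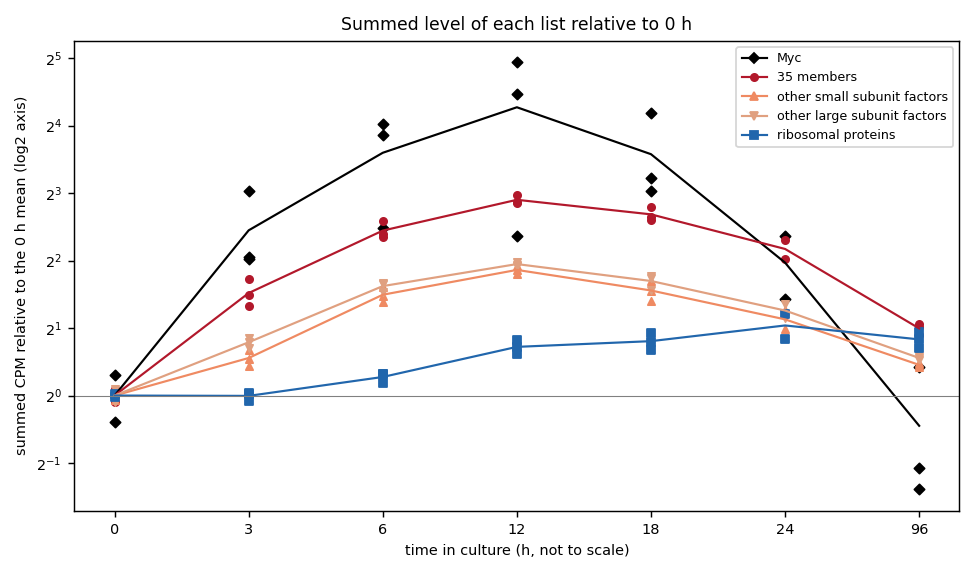
Summed level of Myc, the 35 genes, 2 lists of other ribosome assembly factors and the cytosolic ribosomal proteins in each sample (points), divided by the mean of the 2 samples at 0 h, with lines through the means and a log2 axis. The 35 genes reach 7.46-fold at 12 h and fall to 1.99-fold at 96 h, while the ribosomal proteins reach 2.05-fold at 24 h and stand at 1.78-fold at 96 h.

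Each timepoint was compared with 0 h by edgeR's quasi-likelihood test in one fit of the 19 samples, and a gene was called at a Benjamini-Hochberg adjusted p under 0.1 and a fold change above 2. All comparisons with 0 h share the same 2 samples, so they are not independent of each other. At 3 h 11 of them were called higher, against 4.19% of all genes tested, and 25 at 6 h, against 6.98%. At 12 h 27 were called higher, against 8.6% of all genes, at 18 h 25, against 7.64%, at 24 h 21, against 5.65%, and at 96 h 11, against 5.83%. Without the 0 h sample of replicate 2 the counts at 24 h and 96 h were 14 and 6. Each of the 35 genes had a mean above 10 CPM over all samples. The lowest means were those of Polr1b (10.2) and Nle1 (16.8), which had 0 counts in 9 and 6 samples. Among the 8582 tested genes with that mean, the shares called higher were 7.33%, 12.1%, 14.7%, 13.1%, 9.8% and 10% in the same order. With all 19 samples, none of the 35 was called lower than 0 h by edgeR or DESeq2 at any timepoint, and 0 were lower at an unadjusted p under 0.05, whereas 1.39%, 4.35%, 9.1%, 8.21%, 3.86% and 5.03% of all genes were called lower from 3 to 96 h.

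The median log2 fold change of the 35 genes against 0 h was 1.14, 2.42, 2.76, 2.63, 2.15 and 1.07 from 3 to 96 h, while the median over all genes tested was 0 up to 24 h and 0.07 at 96 h. Every cultured sample lay above both 0 h samples for 18 genes at 3 h, where 17.1% of all genes did so, for 30 at 6 h (17.7%) and for 33 at 12 h (20.3%). The same held for 31 genes at 18 h (19.1%), 33 at 24 h (26.1%) and 18 at 96 h (22.2%). The mean was highest at 12 h in 21 of the 35 genes and at 18 h in 8. Gnl3 and Dkc1 were highest at 6 h, Polr1c at 3 h, Nhp2 at 24 h, and Nop10 and Bysl at 96 h. The lowest mean stood at 0 h in 25 genes. How all genes divide by timepoint of highest or lowest mean was not computed.

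**Figure D2:**
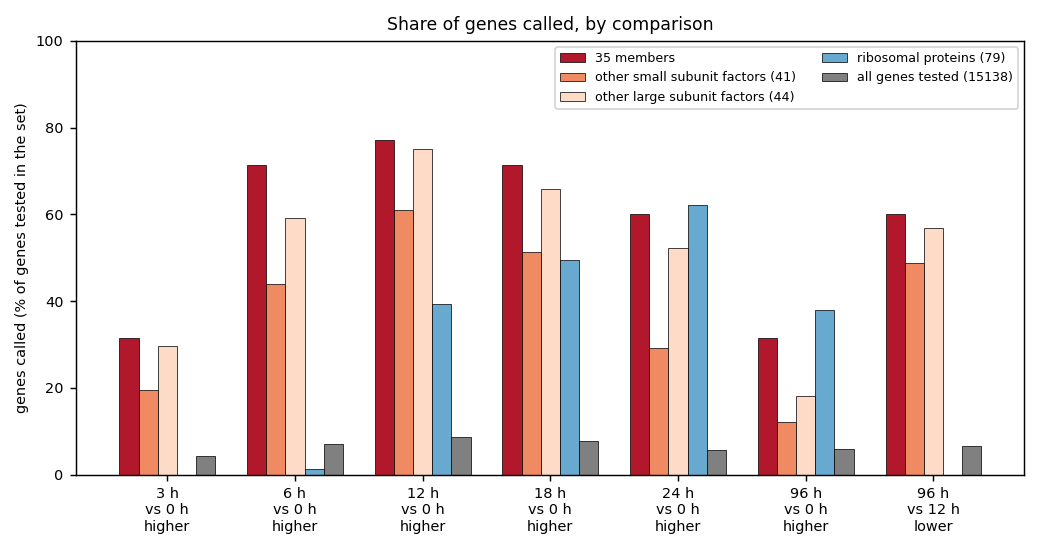
Share of genes called higher at each timepoint against 0 h, and lower at 96 h against 12 h, among the 35 genes, other small and large subunit factors, ribosomal proteins and all genes tested, in percent of the genes tested in each set. The 35 genes stand at 27 of 35 at 12 h, where 8.6% of all genes were called higher, and the ribosomal proteins have no call in the last comparison.

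Within the replicate numbers that held a 0 h sample the direction was shared. At 12 h, 34 of 35 genes were above the 0 h sample of the same number in replicate 2 and 34 of 35 in replicate 3, with median log2 differences of 3.15 and 2.76. At 96 h the counts were 25 of 35 and 31 of 35, with medians of 0.80 and 0.90. The share of all genes above the 0 h sample of the same number was not computed, so these counts have no background. Replicate 1 had no 0 h sample, and its summed level was highest at 12 h (13910 CPM), as in replicates 2 (15120) and 3 (14090). Replicate 2 had another isolation date than replicates 1 and 3.

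The transcription factor Myc had CPM of 15.04 and 24.6 at 0 h, 80.8, 82.3 and 161 at 3 h, 111, 287 and 322 at 6 h and 102, 438 and 608 at 12 h. It had 162, 184 and 362 CPM at 18 h, 53.6 and 102 at 24 h and 7.58, 9.46 and 26.6 at 96 h. Each sample from 3 to 24 h lay above both 0 h samples, the samples of a timepoint differed widely at 6, 12 and 18 h, and at 96 h the values lay on both sides of those at 0 h. Myc had a log2 fold change against 0 h of 2.46 ± 0.77 (SE) at 3 h (adjusted p = 0.093, edgeR), 3.61 ± 0.81 at 6 h (0.0084) and 4.28 ± 0.84 at 12 h (0.00215). At 18 h it was 3.59 ± 0.81 (adjusted p = 0.00704, edgeR), while 1.98 ± 0.79 at 24 h (0.173) and -0.43 ± 0.71 at 96 h (0.814) were not called. The call at 3 h was lost in 13 of the 19 fits that left out 1 sample (adjusted p up to 0.436, edgeR), among them those without either 0 h sample, any 3 h sample or either 24 h sample, without the 6 h or 18 h sample of replicate 1 or 3, without the 12 h sample of replicate 3 and without the 96 h sample of replicate 1. It was also lost under scaling by library size (0.11), and the call at 6 h was lost without the 0 h sample of replicate 2 (0.114). Myc was highest at 6 h in replicate 1 and at 12 h in replicates 2 and 3. Its gene lies at chr15:61985391-61990374 on the plus strand (GRCm38), and no other annotated exon overlaps it.

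**Figure D3:**
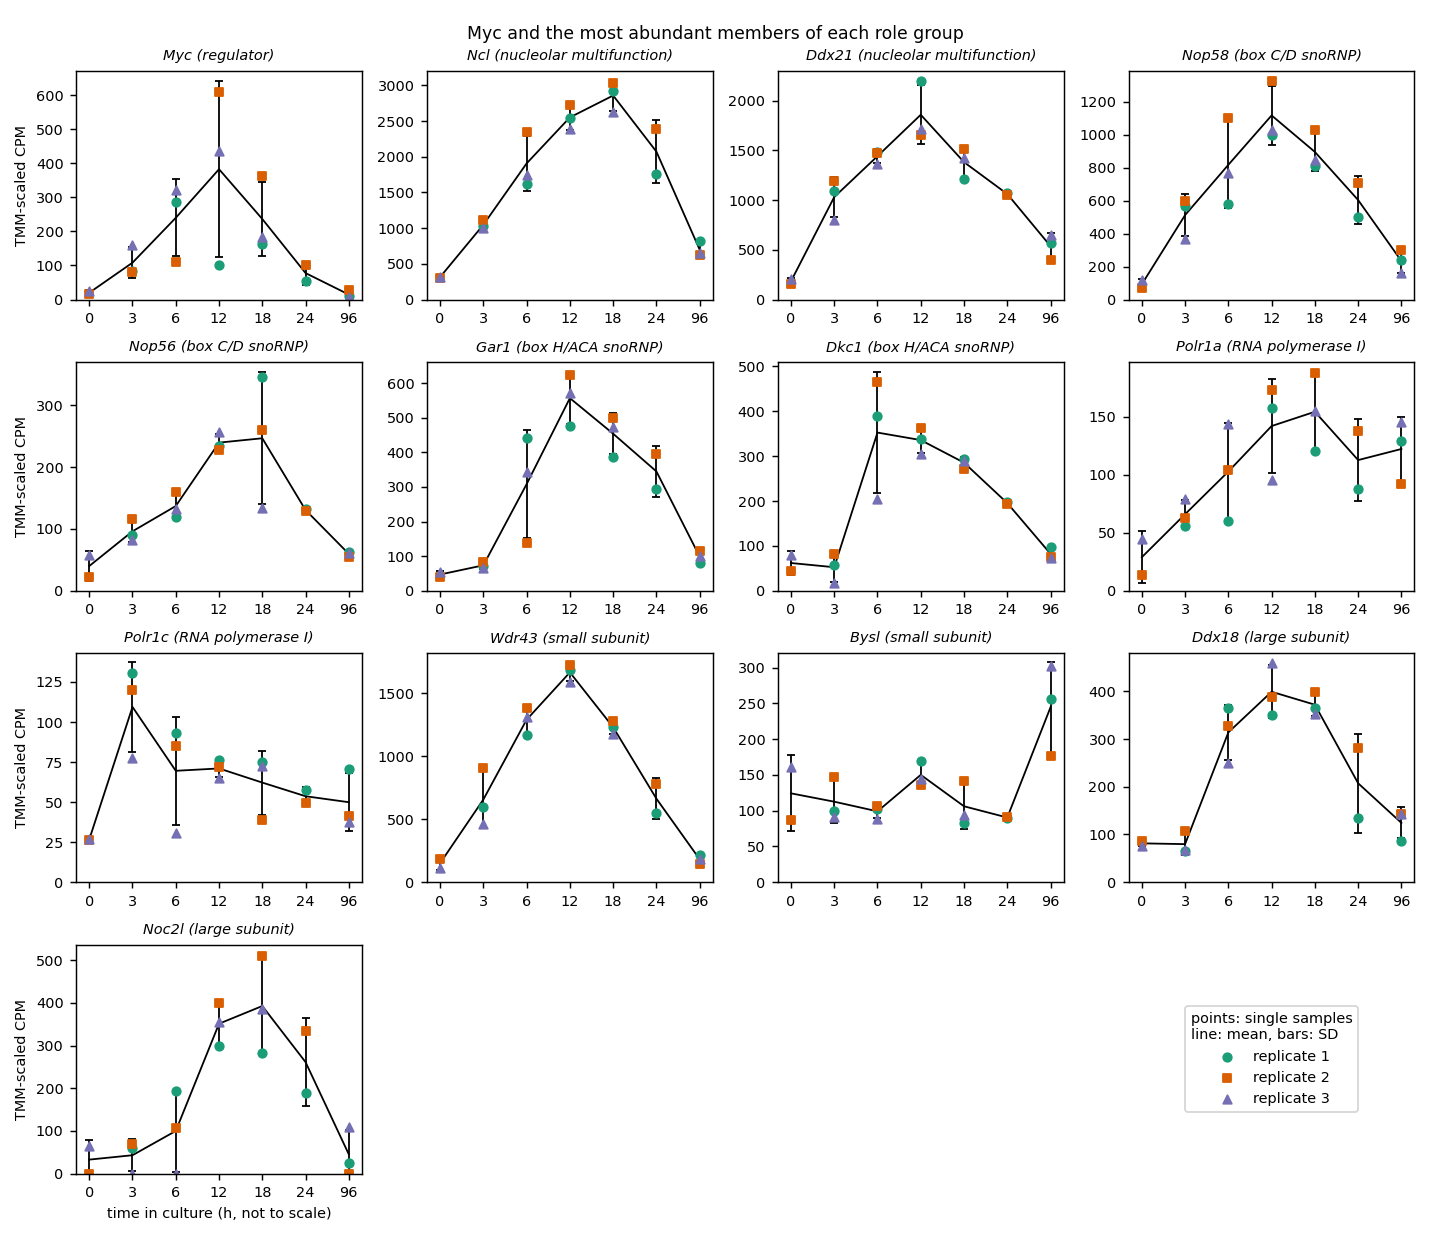
Levels (TMM-scaled CPM) by time in culture of Myc and of the 2 genes with the highest mean in each role group, with single samples as points by replicate number and lines for means with SD. Most genes rise from 0 h to 12 or 18 h and fall by 96 h, Polr1c is highest at 3 h and Bysl at 96 h, and 4 of the samples of Noc2l lie at 0.

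Among the nucleolar proteins with several functions, called higher were 5 of 6 at 3 h, 6 of 6 from 6 to 24 h and 4 of 6 at 96 h. Ncl encodes nucleolin, an abundant nucleolar RNA-binding protein that takes part in ribosomal RNA transcription and processing. Its CPM was 306 and 322 at 0 h, 996, 1027 and 1120 at 3 h, 1623, 1748 and 2352 at 6 h and 2384, 2548 and 2726 at 12 h. At 18 h it was 2625, 2921 and 3032, at 24 h 1761 and 2383 and at 96 h 624, 651 and 818. Every cultured sample stood above both 0 h samples, and the 96 h samples stood below all samples of 3 to 24 h. Ncl differed from 0 h by a log2 fold change of 1.74 ± 0.19 at 3 h (adjusted p = 3.22e-05, edgeR), 3.02 ± 0.20 at 12 h (1.35e-07), 3.19 ± 0.20 at 18 h (8.75e-08) and 1.15 ± 0.18 at 96 h (0.000565). Over the 6 cultured timepoints the course of Ncl was 1.74, 2.60, 3.02, 3.19, 2.72 and 1.15.

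Ddx21 encodes an RNA helicase that links RNA polymerase I transcription with rRNA modification. Its CPM was 156 and 209 at 0 h, 804, 1096 and 1193 at 3 h, 1364, 1479 and 1486 at 6 h and 1660, 1718 and 2201 at 12 h. Later values were 1211, 1422 and 1515 at 18 h, 1049 and 1074 at 24 h and 396, 566 and 649 at 96 h. The cultured samples were all above 0 h, and by 3 h the lowest of them was already above every 96 h sample. For Ddx21 the log2 fold change was 2.498 ± 0.24 at 3 h (adjusted p = 1.11e-05, edgeR), 3.35 ± 0.25 at 12 h (3.19e-07) and 1.56 ± 0.23 at 96 h (0.000273). Ddx21 went through 2.498, 2.98, 3.35, 2.92, 2.54 and 1.56 from 3 to 96 h.

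The other 4 nucleolar genes were also called higher from 6 to 24 h. Npm1, which encodes nucleophosmin, a chaperone of ribosome assembly, went from 149.6 ± 39.1 CPM (SD, n = 2) at 0 h to 792 ± 116 (n = 3) at 12 h, a log2 fold change of 2.40 ± 0.22 (adjusted p = 1.57e-06, edgeR). At 3 h its log2 fold change of 0.78 passed the p threshold (0.0377, edgeR) and not the fold limit, and from 6 to 96 h it had 1.85, 2.40, 2.31, 2.15 and 1.06. Gnl3 encodes nucleostemin, a nucleolar GTPase, and had log2 fold changes of 2.22 at 3 h, 2.73 at 6 h and 0.32 at 96 h, the last not called, with 2.63, 2.67 and 2.05 at 12, 18 and 24 h. Nolc1, a scaffold that binds snoRNPs, had 1.36 at 3 h, 2.60 at 12 h and 0.35 at 96 h, again not called at the end, with 2.44, 2.05 and 1.21 at 6, 18 and 24 h. Mybbp1a, a nucleolar protein that takes part in rRNA processing, had 1.14, 2.21, 2.84, 2.63, 2.18 and 1.10 from 3 to 96 h and was called at all 6 timepoints, as were Ncl and Ddx21. Without the 0 h sample of replicate 2 its calls at 3 h (adjusted p = 0.392, edgeR) and 96 h (0.377) were lost, as was that of Nolc1 at 24 h (0.131), and leaving out the 3 h sample of replicate 2 also took the 3 h call of Mybbp1a. A fit of the compared groups alone ended the same 3 calls (0.184 and 0.197 for Mybbp1a, 0.116 for Nolc1, edgeR), and the Mybbp1a fold at 96 h was under 2 in DESeq2. The 96 h call of Npm1 was lost without the 0 h sample of replicate 3, without the 96 h sample of replicate 2, in DESeq2 and after thinning, where its fold came to 2 or less. Blast of the last 400 bases of each transcript against annotated transcripts found 5 near copies of Npm1 in other genes. Its counts can thus hold reads of copies or lack reads shared with them. Copies without an annotated transcript were not searched.

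The box C/D snoRNP proteins, which carry 2′-O-methylation of ribosomal RNA, were called higher in 2 of 4 genes at 3 h, 4 of 4 from 6 to 24 h and 2 of 4 at 96 h. Nop58 and Nop56 are paired core proteins of these particles. Nop58 CPM was 68.2 and 116 at 0 h, 367, 569.9 and 599 at 3 h, 582, 769 and 1101 at 6 h and 999, 1026 and 1325 at 12 h. From 18 h on it was 810.1, 849 and 1027 at 18 h, 499 and 707 at 24 h and 161, 238 and 301 at 96 h. Each cultured sample was above both 0 h samples. The Nop58 log2 fold change was 2.48 ± 0.36 at 3 h (adjusted p = 0.000477, edgeR), 3.60 ± 0.38 at 12 h (6.39e-06) and 1.34 ± 0.34 at 96 h (0.0185). The 96 h call was lost without the 0 h sample of replicate 2 (0.269). At 6, 18 and 24 h Nop58 had log2 fold changes of 3.15, 3.28 and 2.71.

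Nop56 CPM was 22.8 and 57.2 at 0 h, 82.1, 89.9 and 116 at 3 h, 119, 132 and 159.9 at 6 h and 228, 234 and 256 at 12 h. It then stood at 134, 260.2 and 345 at 18 h, 129.5 and 132 at 24 h and 55.05, 61.5 and 62.5 at 96 h. Samples of 3 to 24 h lay above both 0 h samples, the 18 h samples were far apart, and at 96 h 1 of 3 samples fell below the higher 0 h sample. The log2 fold change was 1.28 ± 0.38 at 3 h (adjusted p = 0.078, edgeR), 2.63 ± 0.41 at 18 h (0.000304) and 0.59 ± 0.37 at 96 h (0.387, not called), with 1.79, 2.59 and 1.72 at 6, 12 and 24 h. The call at 3 h was lost with the replicate number as a block, called a replicate block here (adjusted p = 0.139, edgeR), and in 6 of the 19 fits that left out 1 sample (up to 0.53), which lacked the 0 h sample of replicate 2, the 3 h sample of replicate 1 or 2, the 12 h sample of replicate 2 or either 24 h sample. Its calls at 6 h (0.119) and 24 h (0.196) were lost without the 0 h sample of replicate 2. Library size scaling (0.114), no filter on low counts (0.111) and the compared groups alone (0.1755) also ended the 3 h call of Nop56, and the last ended that at 24 h (0.128).

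Fbl, the methyltransferase of the particles, went from 37.4 ± 8.13 CPM at 0 h to 244 ± 46.6 at 12 h, with a log2 fold change of 2.70 ± 0.46 (adjusted p = 0.000674, edgeR) and 0.75 at 96 h, not called. Fbl had 0.47, also not called, at 3 h and 1.97, 2.20 and 2.22 at 6, 18 and 24 h. Its call at 6 h was lost without the 0 h sample of replicate 3 (0.12). Rrp9, which binds the U3 snoRNP, rested on 4 counts in 1 of the 2 samples at 0 h and 0 in the other. Its CPM was 13.6, 18.5 and 26.6 at 3 h, 38.3, 104 and 139 at 12 h and 0, 21.4 and 24.1 at 96 h. All 3 h and 12 h samples were above 0 h, and a 96 h sample was at 0 again. The fitted log2 fold changes of 7.21 ± 1.69 at 12 h (adjusted p = 0.00807, edgeR) and 4.59 ± 1.55 at 96 h (0.0857) depend on those few counts, and calls at 6 and 24 h were lost without the 0 h sample of replicate 3 (0.152 and up to 0.202), the one at 24 h also without the other 0 h sample or the 24 h sample of replicate 1. The 96 h call of Rrp9 was lost in 13 of 19 such fits (up to 0.342), with the replicate block (0.141), with the isolation date as a covariate (0.126) and with the compared groups alone (0.3205, edgeR), and it held without the 6 h sample of replicate 3, the 12 h sample of replicate 1 or 3, or the 18, 24 or 96 h sample of replicate 2. Rrp9 had fitted values of 4.96 at 3 h, not called, and 6.51, 7.31 and 6.09 at 6, 18 and 24 h.

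Of the box H/ACA proteins, which carry pseudouridylation, edgeR called 2 genes higher and 2 at no timepoint, while DESeq2 called 3 of 4 higher at 12 h. At 3 h 0 of 4 were called, 0 reached an unadjusted p under 0.05 in edgeR, and DESeq2 called 0. Gar1 CPM was 40.6 and 53.7 at 0 h, 64.7, 72.7 and 83.9 at 3 h, 139, 344 and 442 at 6 h and 476, 571 and 623 at 12 h. It was 387, 474 and 500.4 at 18 h, 293 and 396 at 24 h and 79.4, 102 and 115 at 96 h. Its cultured samples were all above 0 h, with a wide step between 3 h and 6 h. Gar1 differed from 0 h by a log2 fold change of 0.65 ± 0.36 at 3 h (adjusted p = 0.417, edgeR, not called), 3.56 ± 0.41 at 12 h (1.54e-05) and 1.07 ± 0.36 at 96 h (0.0836). That last call was lost with the replicate block (0.111) and in 7 of 19 fits that left out 1 sample (up to 0.406), namely either 0 h or 24 h sample, the 18 h sample of replicate 3 or the 96 h sample of replicate 2 or 3. No filter (0.103), the isolation date (0.102) and thinning (0.136) ended it too, and in DESeq2 the fold of Gar1 was under 2. Between them Gar1 had 2.71, 3.27 and 2.87 at 6, 18 and 24 h.

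Dkc1 encodes dyskerin, the pseudouridine synthase of the particle. Its CPM was 43.6 and 80.3 at 0 h, 18.1, 57.7 and 81.98 at 3 h, 204, 388 and 464 at 6 h and 306, 338 and 363 at 12 h. Later it was 272, 290.1 and 295 at 18 h, 194 and 197 at 24 h and 72.9, 75.8 and 98.1 at 96 h. At 3 h and 96 h the samples overlapped those of 0 h, and from 6 to 24 h they did not. For Dkc1 the log2 fold change was -0.23 ± 0.45 at 3 h (adjusted p = 0.916, edgeR), 2.51 ± 0.50 at 6 h (0.00344) and 1.66 ± 0.50 at 24 h (0.0573). Dkc1 had 2.44, 2.21 and 0.41 at 12, 18 and 96 h, the last not called. The 24 h call was lost with the replicate block (0.164) and without the 0 h sample of replicate 2 or either 24 h sample (up to 0.398), and the 18 h call without the same 0 h sample (0.118).

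Nhp2 and Nop10, the small subunits of the same particle, were not called by edgeR. Nhp2 had 10.3 and 28.6 CPM at 0 h, 0, 23.2 and 30.1 at 3 h and 70.5, 110.3 and 117 at 12 h. Its samples from 6 h on lay above both 0 h samples, but with a fitted log2 fold change of 2.36 ± 1.05 at 12 h it did not pass the test (adjusted p = 0.156, edgeR). Nop10 had 83.9 and 131 CPM at 0 h, 54.3, 58.4 and 89.2 at 6 h, 83.1, 130.2 and 190.4 at 12 h and 129.6, 172 and 206 at 96 h, with a log2 fold change of 0.32 ± 0.34 at 12 h (0.598). The course from 3 to 96 h was -0.12, 1.78, 2.36, 2.22, 2.38 and 1.73 for Nhp2 and -0.47, -0.68, 0.32, -0.08, 0.29 and 0.65 for Nop10. The samples of Nop10 at 12 h lay on both sides of those at 0 h.

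Of the RNA polymerase I subunits, Polr1a encodes the largest, catalytic one. Its CPM was 13.3 and 44.7 at 0 h, 55.7, 63.04 and 79.5 at 3 h, 60.5, 104 and 144 at 6 h and 95.8, 157 and 173 at 12 h. It was 120.4, 155 and 188 at 18 h, 87.97 and 138 at 24 h and 92.4, 129 and 146 at 96 h. Every cultured sample was above both 0 h samples, and the 96 h samples overlapped those of 12 and 18 h. The Polr1a log2 fold change was 2.31 ± 0.50 at 12 h (adjusted p = 0.00473, edgeR) and 2.10 ± 0.50 at 96 h (0.0127). At 3 h Polr1a had 1.21, not called, and at 6, 18 and 24 h 1.85, 2.43 and 1.98. Its calls at 6 h (0.258), 24 h (0.266) and 96 h (0.172) were lost without the 0 h sample of replicate 2, and the one at 24 h also without the 24 h sample of that replicate. A fit of the compared groups alone ended the calls of Polr1a at 6 h (0.155) and 24 h (0.168).

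Polr1c, a subunit that RNA polymerase I shares with RNA polymerase III, had CPM of 26.1 and 27.1 at 0 h, 77.8, 120.1 and 130.4 at 3 h, 30.7, 85.1 and 92.8 at 6 h and 64.98, 72.1 and 75.98 at 12 h. The later values were 39.1, 72.6 and 74.8 at 18 h, 49.6 and 57.7 at 24 h and 37.4, 41.6 and 70.8 at 96 h. All cultured samples were above both 0 h samples, and the highest stood at 3 h. The log2 fold change was 2.04 ± 0.48 at 3 h (adjusted p = 0.0229, edgeR), 1.39 ± 0.47 at 6 h (0.0834) and 1.42 ± 0.47 at 12 h (0.0566), with no call later, at 1.23, 1.01 and 0.91. The 3 calls of Polr1c were each lost without either 0 h sample (up to 0.169 at 3 h, 0.314 at 6 h and 0.237 at 12 h), the one at 12 h also without the 12 h sample of replicate 1 or 2, and the one at 6 h in 9 of 19 such fits and with the replicate block (0.135). Besides the 0 h samples those 9 left out the 3 h or 6 h sample of replicate 1 or 2, the 12 h sample of replicate 2 or either 24 h sample. No filter on low counts ended the calls of Polr1c at 6 h (0.182) and 12 h (0.128), and the compared groups alone that at 6 h (0.199).

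Polr1b, the second largest subunit, had 0 counts in all samples of 0 h and 3 h, 19.1, 36.97 and 40.3 CPM at 12 h and 8.37 and 13.9 at 24 h. Its samples ran from 0 to 27.6 CPM at 6 h and from 0 to 14.7 at 18 h, so the means there include samples without counts. Against the floor of 3 counts in the shallower 0 h library, its mean was at least 10.6-fold higher at 6 h and 21.3-fold at 12 h. At 18 h and 24 h its mean was at least 5.14-fold and 7.39-fold higher. It was not called by edgeR at any timepoint (adjusted p = 0.11 at 12 h, edgeR), while DESeq2 called 3 of the 3 subunits higher at 12 h. The mean of Polr1b at 96 h was under the floor. With Polr1b at these bounds the median log2 fold change of the 35 genes at 12 h stayed at 2.76.

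Among the factors of the small subunit, 2 of 7 were called higher at 3 h, then 3, 5, 4, 4 and 1 at the timepoints from 6 to 96 h. Wdr43 is a component of the early small subunit precursor. Its CPM was 115 and 187 at 0 h, 464, 601 and 906 at 3 h, 1171, 1315 and 1388 at 6 h and 1589, 1689 and 1723 at 12 h. It had 1177, 1237 and 1280 at 18 h, 549.9 and 777 at 24 h and 146, 186 and 212 at 96 h. The samples of 3 to 24 h did not overlap those of 0 h, and the 96 h samples did. Wdr43 differed from 0 h by a log2 fold change of 2.12 ± 0.28 at 3 h (adjusted p = 0.000211, edgeR), 3.46 ± 0.30 at 12 h (1.1e-06) and 0.27 ± 0.26 at 96 h (0.621, not called). Wdr43 had 3.10, 3.03 and 2.13 at 6, 18 and 24 h.

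Bysl, which encodes bystin, a late assembly factor of the small subunit, was the one gene of its role whose mean was highest at 96 h. Its CPM was 86.8 and 162 at 0 h, 90.6, 99.8 and 147 at 3 h, 88.2, 102 and 107 at 6 h and 136, 145 and 169 at 12 h. It was 82.4, 94.6 and 141 at 18 h, 90.3 and 90.5 at 24 h and 176, 256 and 302 at 96 h. The samples of every timepoint from 3 to 24 h overlapped those of 0 h or lay between them, and the 96 h samples were above both. For Bysl the log2 fold change was 0.28 ± 0.32 at 12 h (adjusted p = 0.637, edgeR) and 0.98 ± 0.33 at 96 h (0.08), just under the fold limit, so Bysl was not called against 0 h. Its values at 3, 6, 18 and 24 h were -0.14, -0.32, -0.22 and -0.46. Against 24 h it was called higher at 96 h, the 1 gene of the 35 called in that direction, with 1.44 ± 0.33 (0.0331). An exon of Bysl overlaps Ccnd3 on the opposite strand. Ccnd3 had a mean of 17.6 CPM at 0 h, 8.12 at 12 h and 48.6 at 96 h, and whether counting used the strand is not given in the sources used here, so reads of the pair cannot be told apart.

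Tsr1, a late factor of the small subunit, was among the 5 genes called at every timepoint. Its CPM was 6.27 and 8.03 at 0 h, 75.3, 77.97 and 102 at 3 h, 223, 237 and 303 at 12 h and 28.96, 34.1 and 42.1 at 96 h, with no overlap with 0 h. The Tsr1 log2 fold change was 3.58 ± 0.31 at 3 h (adjusted p = 5.39e-06, edgeR), 5.16 ± 0.34 at 12 h (1.35e-07) and 2.31 ± 0.30 at 96 h (7.8e-05). Tsr1 had 4.82, 4.36 and 4.21 at 6, 18 and 24 h. Utp20, a component of the early precursor, had log2 fold changes of -0.12 at 3 h and 1.35 at 6 h, not called, and 2.505 ± 0.64 at 12 h (0.0136), then 2.56, 2.13 and, not called, 0.56 at 18, 24 and 96 h. Its calls at 12, 18 and 24 h were lost without the 0 h sample of replicate 2 (0.152, 0.168 and 0.41, edgeR), and the last also without the 24 h sample of that replicate or with the compared groups alone (0.164). Nob1, the nuclease that makes the final cut of the small subunit rRNA, had 3.58 ± 0.67 at 12 h (0.00151) and 1.23, 2.89, 3.58, 2.41, 2.36 and 1.71 over the 6 timepoints. Its calls at 6, 18 and 24 h were lost without the 0 h sample of replicate 3 (0.1155, 0.177 and up to 0.262), and that at 24 h without the 24 h sample of replicate 2 or with the compared groups alone (0.106) as well, and at 96 h Nob1 was not called (adjusted p = 0.107) but passed with the replicate block (log2 fold change 1.88, adjusted p = 0.0712, edgeR).

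Heatr1 and Rrp12 each held a 0 among the samples of 0 h. Heatr1, a factor of early rRNA transcription and processing, had 0 and 16.1 CPM at 0 h, 0, 0 and 52.7 at 3 h and 156, 158 and 168 at 12 h. The 12 h samples lay well above both 0 h samples, yet with a log2 fold change of 4.25 ± 1.71 it was not called (adjusted p = 0.118, edgeR). DESeq2 called 6 of the 7 small subunit factors higher at 12 h, where edgeR called 5. Without the 3 h sample of replicate 3, which leaves 2 samples at 0 counts there, Heatr1 was called lower at 3 h than at 0 h (-8.36, adjusted p = 0.018, edgeR). Rrp12, an export factor of the subunits, rested on 12 counts at 0 h in all and had 72.05, 85.9 and 128 CPM at 12 h, where it was called (5.08 ± 1.62, 0.0471). Without the 0 h sample of replicate 2 that call was lost (0.208). From 3 to 96 h the fitted course was 1.07, 3.87, 4.25, 3.69, 3.28 and 2.03 for Heatr1 and 2.62, 4.31, 5.08, 4.10, 3.58 and 2.65 for Rrp12, and 12 h was the 1 timepoint at which Rrp12 was called.

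The factors of the large subunit were called higher in 0 of 10 genes at 3 h, where 1, Bop1, reached an unadjusted p under 0.05 in edgeR and DESeq2 called 1. From 6 h the count was 7 of 10 at 6, 12 and 18 h, 4 at 24 h and 2 at 96 h. Ddx18, an RNA helicase, had CPM of 76.8 and 86.00 at 0 h, 65.7, 66.9 and 107 at 3 h, 250.3, 326 and 365 at 6 h and 350.2, 388 and 459 at 12 h. It had 352, 365 and 398 at 18 h, 134 and 281 at 24 h and 86.6, 143 and 144 at 96 h. At 3 h the samples lay on both sides of 0 h, and from 6 h on each was above both 0 h samples. The log2 fold change was -0.03 ± 0.31 at 3 h (adjusted p = 1, edgeR), 1.95 ± 0.34 at 6 h (0.00115) and 2.29 ± 0.34 at 12 h (0.000193). The 24 h call was lost without either 0 h sample or the 24 h sample of replicate 2 (up to 0.453), and with the compared groups alone (0.131). Ddx18 had 2.19, 1.35 and 0.61 at 18, 24 and 96 h, the last not called.

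Noc2l, a factor of large subunit export, had CPM of 0 and 65.3 at 0 h, 0, 58.7 and 69.99 at 3 h, 0, 107 and 192 at 6 h and 298, 356 and 399 at 12 h. It had 282, 386 and 510.1 at 18 h, 188 and 334 at 24 h and 0, 25.2 and 109 at 96 h. The samples of 12 to 24 h stood above both 0 h samples, while 4 samples at other timepoints, 1 of them at 0 h, were at 0 counts. The log2 fold change of 3.46 ± 2.22 at 12 h did not pass the test (adjusted p = 0.334, edgeR). Nop2, an rRNA methyltransferase (0 and 24.6 CPM at 0 h and 195, 201 and 207 at 12 h), had 4.10 ± 1.61 (0.108) and was not called either. Nle1, which acts in large subunit maturation, had 3 counts at 0 h in all and 899 at 12 h, a ratio per scaled library of 101 with a 95% interval of 34.5 to 492 (conditional binomial, counting error only), and was not called (0.208, edgeR). None of these 3 was called by edgeR at any timepoint. DESeq2 called 9 of the 10 large subunit factors higher at 12 h, where edgeR called 7. Fitted courses from 3 to 96 h were 0.43, 1.65, 3.46, 3.62, 3.04 and 0.500 for Noc2l, 1.91, 3.505, 4.10, 3.38, 2.98 and 1.93 for Nop2 and 2.91, 5.12, 6.16, 4.34, 4.28 and 1.94 for Nle1, the last resting on those 3 counts.

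The PeBoW complex of Pes1, Bop1 and Wdr12 is needed to process the large subunit rRNA. Pes1 went from 18.8 ± 15.2 CPM at 0 h to 127 ± 6.99 at 12 h (2.73 ± 0.56, adjusted p = 0.00311, edgeR), Bop1 from 13.7 ± 5.84 to 58.7 ± 18.3 (2.09 ± 0.58, 0.0222) and Wdr12 from 11.7 ± 2.3 to 79.5 ± 9.7 (2.76 ± 0.44, 0.00037). All 3 were called at 6, 12 and 18 h, and at 96 h Bop1 (1.81) and Wdr12 (1.93) were called and Pes1 (1.11) was not. Every call of Wdr12 held in all 19 fits that left out 1 sample. Bop1 lost each of its calls without the 0 h sample of replicate 3 (0.331 at 6 h, 0.201 at 12 h, 0.106 at 18 h, and up to 0.591 at 24 h and 0.358 at 96 h, edgeR). At 6, 24 and 96 h it lost them also without the other 0 h sample, at 6 h without the 6 h sample of replicate 3, at 96 h without the 96 h sample of replicate 2 or 3, and at 24 h in 13 of 19 fits and with the replicate block (0.155). The 24 h call of Bop1 held without the 6 h or 96 h sample of replicate 1 or 3, the 12 h sample of replicate 1 or the 24 h sample of replicate 2. No filter on low counts and the compared groups alone also ended the calls of Bop1 at 6 h (0.102 and 0.139), 24 h (0.202 and 0.246) and 96 h (0.124 and 0.138), and that at 24 h was lost with the isolation date (0.126) or without mitochondrial genes (0.101). The courses from 3 to 96 h were 0.32, 1.61, 2.73, 2.60, 1.40 and 1.11 for Pes1, 1.78, 1.90, 2.09, 2.61, 1.78 and 1.81 for Bop1 and 0.48, 2.42, 2.76, 2.96, 2.56 and 1.93 for Wdr12. Pes1 lost its 6 h call in 6 of 19 fits (up to 0.4775), without the 0 h sample of replicate 3, the 6 h sample of replicate 2 or 3, the 12 h sample of replicate 2 or either 24 h sample, and with no filter (0.147) or the compared groups alone (0.268).

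Rrs1, a factor of the 5S particle, had 51.1 and 51.7 CPM at 0 h, 53.7, 65.7 and 70.6 at 3 h, 303, 310.2 and 403 at 12 h and 45.6, 48.9 and 58.5 at 96 h. Its 12 h samples were far above 0 h, and its 96 h samples lay on both sides of it. Rrs1 differed from 0 h by a log2 fold change of 2.72 ± 0.24 at 12 h (adjusted p = 1.27e-06, edgeR) and -0.01 ± 0.22 at 96 h (1). Rrp1b, a nucleolar processing factor, had 2.76 ± 0.47 at 12 h (0.0007), and Nip7, a factor of large subunit rRNA processing, had 2.14 ± 0.51 (0.00885). Both were called at 6, 12 and 18 h and had log2 fold changes of -0.32 and -0.17 at 96 h. Rrp1b lost its calls at 6 h (0.106) and 18 h (0.116) without the 0 h sample of replicate 3. Nip7 lost its 12 h call without that sample (0.1015) and those at 6 h (up to 0.2025) and 18 h (up to 0.195) without either 0 h sample. The courses from 3 to 96 h were 0.30, 2.09, 2.72, 2.30, 1.499 and -0.01 for Rrs1, 0.42, 2.14, 2.76, 2.01, 1.10 and -0.32 for Rrp1b and 0.496, 1.91, 2.14, 1.80, 1.32 and -0.17 for Nip7.

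**Figure D4:**
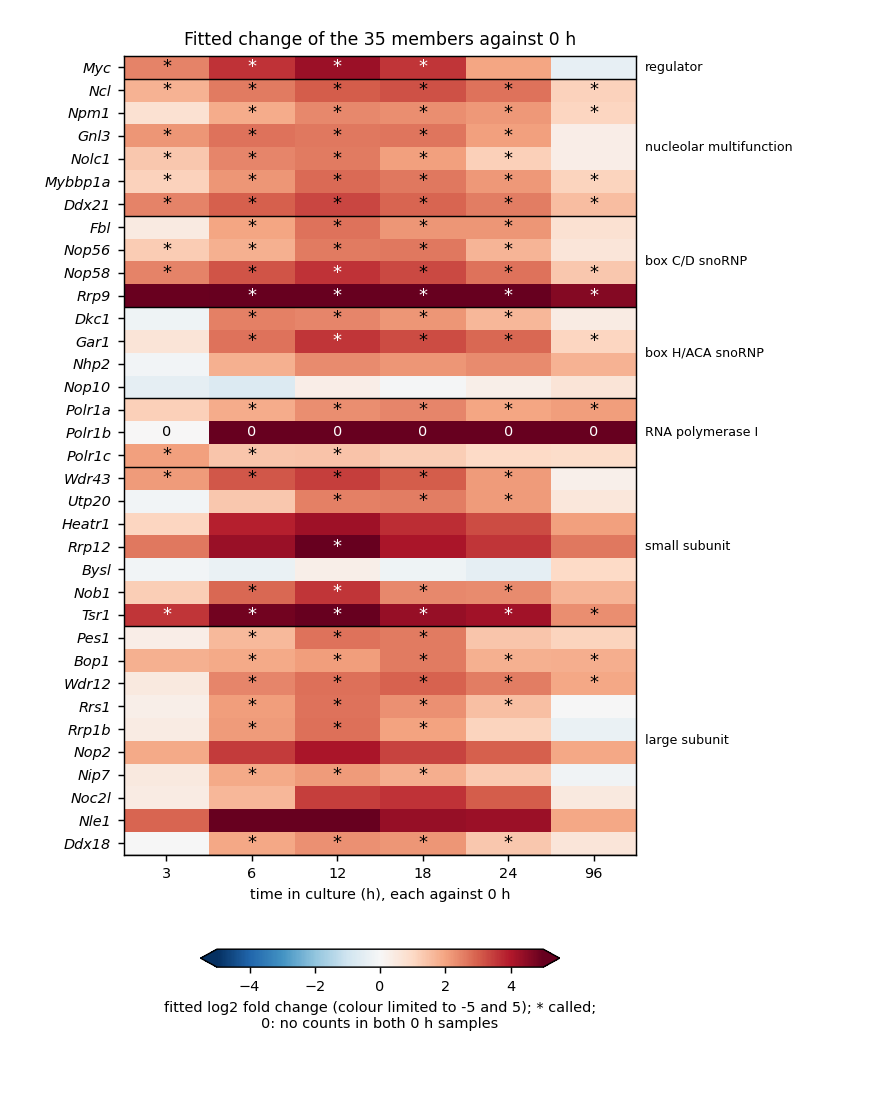
Fitted log2 fold change of the 35 genes at each timepoint against 0 h, grouped by role, with asterisks for called genes and 0 marking Polr1b, which had no counts in either 0 h sample. Most genes deepen in colour from 3 h to 12 h and pale by 96 h, with Nop10 and Bysl pale from 3 to 24 h.

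In 17 of the 35 genes an exon overlaps a gene of the opposite strand. In 4 (Ncl, Gnl3, Nop56 and Nop58) an exon overlaps a small RNA gene of the same strand. A near copy among annotated transcripts of other genes was found for 7, namely Npm1, Fbl, Nop56, Dkc1, Polr1b, Wdr12 and Ddx18. Of the 17 opposite-strand partners, 5 did not pass the filter. Of the 12 tested, 1, Parp3, which overlaps Rrp9, was called lower at 12 h than at 0 h and 11 were not called, where 9.1% of all genes were called lower and 8.6% higher. These shared reads could not be separated, since counting by strand and the handling of multiply mapped reads are not given in the sources used here.

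Between successive timepoints, the step from 3 to 6 h held 12 of the 35 genes called higher, against 2.5% of all genes. They were Npm1, Nolc1, Mybbp1a, Fbl, Dkc1, Gar1, Tsr1, Wdr12, Rrs1, Rrp1b, Nip7 and Ddx18. The step was 2.75 ± 0.43 on the log2 scale for Dkc1 (adjusted p = 0.00201, edgeR) and 2.06 ± 0.32 for Gar1 (0.00201). From 6 to 12 h none was called by edgeR or DESeq2, where 0.416% of all genes were called higher and 1.42% lower, and 9 of the 35 genes were higher at an unadjusted p under 0.05. From 12 to 18 h and from 18 to 24 h both tools called 0, where edgeR called 0.152% and 0.0264% of all genes lower and 0.0727% and 0.0132% higher, and 5 and 9 of the 35 genes were lower at an unadjusted p under 0.05. From 24 to 96 h 11 genes were called lower, against 1.35% of all genes, and Bysl higher, against 1.37%. Those lower were Myc (-2.41), Wdr43, Tsr1, Ncl, Gnl3, Nop58, Gar1, Fbl, Npm1, Mybbp1a and Rrs1.

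The second question was how far the genes returned by 96 h. Of the 35 genes, 21 were lower at 96 h than at 12 h, against 6.57% of all genes tested and 11% of the genes with at least 10 CPM. In the same comparison 5 of 12 sinusoidal endothelial markers were called lower (Cdh5, Flt1, Stab2, Lyve1 and Dnase1l3), and their part in the result was not tested. The median log2 difference was -2.03, where the median of all genes was 0.09. All 96 h samples lay below all 12 h samples for 29 of the 35 genes, as for 14.6% of all genes, and above them for 1, Bysl, as for 19.2%. No gene of the 35 was called higher at 96 h than at 12 h by edgeR or DESeq2, where edgeR called 6.96% of all genes higher, and Bysl was the 1 gene of the 35 that was higher at an unadjusted p under 0.05.

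Myc fell by the largest amount among the called genes, from a mean of 383 to 14.5 CPM, a log2 difference of -4.71 ± 0.71 (adjusted p = 0.000317, edgeR). Wdr43 had -3.20 ± 0.25 (6.55e-07), Rrp1b -3.08 ± 0.41 (9.29e-05) and Tsr1 -2.85 ± 0.25 (1.65e-06). By role, all 6 of the nucleolar group were called lower, with Ncl at -1.87, Npm1 at -1.34, Gnl3 at -2.31, Nolc1 at -2.25, Mybbp1a at -1.73 and Ddx21 at -1.79. In the box C/D group 3 of 4 were called, with Fbl at -1.96, Nop56 at -2.004 and Nop58 at -2.26. Gar1 (-2.49) and Dkc1 (-2.03) were called lower in the box H/ACA group. Of the small subunit factors Utp20 (-1.94) and Nob1 (-1.87) joined Wdr43 and Tsr1, 4 of 7 in all. Of the large subunit factors Rrs1 (-2.73), Nip7 (-2.32), Ddx18 (-1.68) and Pes1 (-1.62) joined Rrp1b, 5 of 10 in all. The calls of Nob1 (without the 12 h sample of replicate 3 or the 96 h sample of replicate 1 or 3, adjusted p up to 0.145, edgeR), Utp20 (without the 12 h sample of replicate 2, 0.106) and Pes1 (without the 96 h sample of replicate 1, 0.113) were lost when 1 sample was left out.

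The RNA polymerase I subunits were not called, with -0.22 ± 0.40 for Polr1a and -0.51 ± 0.40 for Polr1c, and in this group 0 of 3 reached an unadjusted p under 0.05 and DESeq2 called 0. Bop1 (-0.28 ± 0.47), Wdr12 (-0.83 ± 0.35) and Nhp2 (-0.63 ± 0.85) were not called either, nor were Nop10 (0.33) and Bysl (0.71). Nop2 (-2.16), Heatr1 (-2.21), Rrp12 (-2.43), Rrp9 (-2.63), Noc2l (-2.96) and Nle1 (-4.22) had larger differences with standard errors from 1.07 (Rrp9) to 2.28 (Nle1), and Polr1b, under the floor at 96 h, was not called. A sample at 0 counts beside one of at least 10 CPM of the same timepoint occurred in 8 of the 35 genes (22.9%, against 30.1% of genes whose mean reached 10 CPM). These were Rrp9, Nhp2, Polr1b, Heatr1, Rrp12, Nop2, Noc2l and Nle1.

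**Figure D5:**
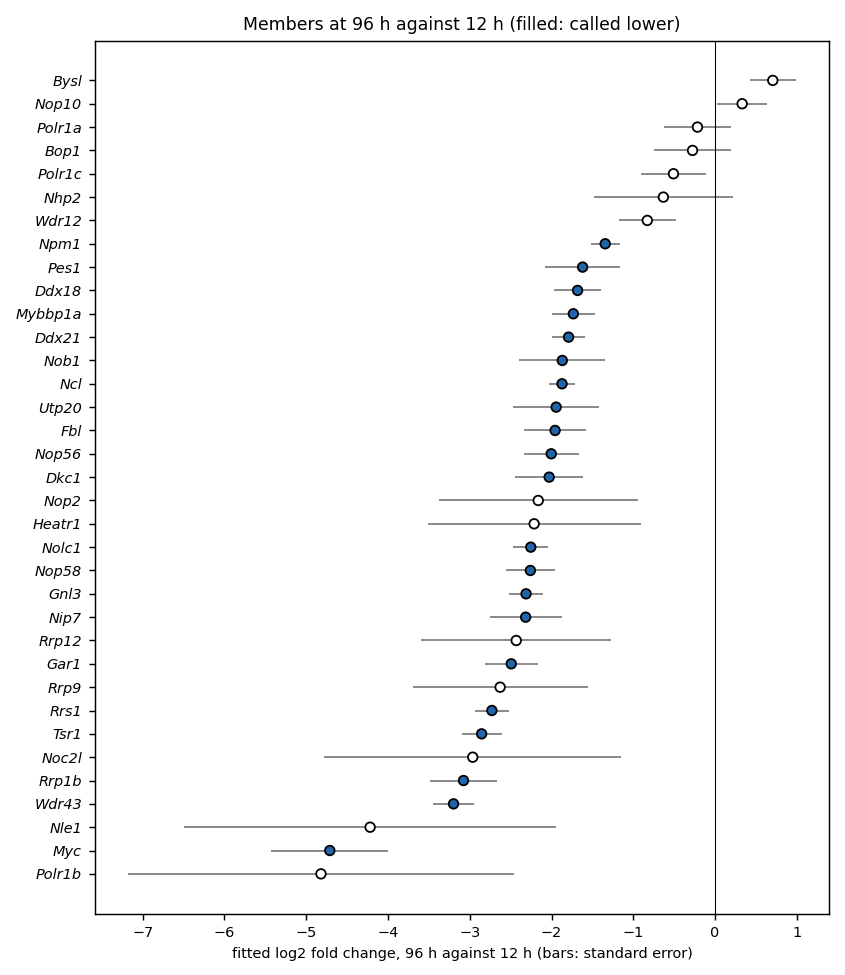
Fitted log2 fold change of each of the 35 genes at 96 h against 12 h, with bars for the standard error and filled points for genes called lower. Myc stands at -4.71, the called genes reach up to -1.34 (Npm1), and Bysl and Nop10 are the 2 genes above 0.

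How other genes of the same pathway behaved was read from lists that hold none of the 35 genes. Of 41 other factors of the small subunit, 8, 18, 25, 21, 12 and 5 were called higher from 3 to 96 h, and 20 were called lower at 96 h than at 12 h. Of 44 other factors of the large subunit, 13, 26, 33, 29, 23 and 8 were called higher at these timepoints, and 25 were lower at 96 h than at 12 h. Of all genes tested, 4.19%, 6.98%, 8.6%, 7.64%, 5.65% and 5.83% were called higher at these timepoints, and 6.57% lower at 96 h than at 12 h. Called lower than 0 h were Rpf2 at 3 h (-2.005, adjusted p = 0.0482, edgeR), and Sbds (-1.27, 0.0813), Pdcd11 (-1.30, 0.053) and Imp3 (-1.43, 0.0234) at 96 h, all named after their values were seen. The summed levels of these small and large subunit lists reached 3.63-fold and 3.86-fold of 0 h at 12 h. A sum is weighted towards its most abundant genes. The median log2 fold changes of the lists at 12 h were 1.81 and 2.45, against 2.76 for the 35 genes. Utp15, of the early small subunit precursor, had 4.09 ± 1.08 at 12 h (adjusted p = 0.0173, edgeR), and Nmd3, the export adaptor of the large subunit, had 5.04 ± 0.88 (0.000887). Noc4l and Ddx31 were at 0 counts at 0 h and stood at least 29.98-fold and 23.7-fold higher at 12 h. Of 17 other genes of RNA polymerase I transcription 9 were called higher at 12 h and 4 lower at 96 h than at 12 h. Tcof1, which encodes treacle, a cofactor of rRNA transcription, had 3.94 ± 0.53 at 12 h (7.62e-05), and Polr1e, at 0 counts at 0 h, was at least 29.3-fold higher.

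The ribosomal proteins, which the 35 genes help to assemble into subunits, were read from 79 genes. Of these, 0 were called higher at 3 h (5 higher and 3 lower at an unadjusted p under 0.05, DESeq2 0), and then 1 (Rpl4), 31, 39, 49 and 30 up to 96 h. The shares of all genes called higher from 3 to 96 h were 4.19%, 6.98%, 8.6%, 7.64%, 5.65% and 5.83%. At 96 h against 12 h 0 of the 79 were called lower or higher by edgeR or DESeq2, with 10 lower and 14 higher at an unadjusted p under 0.05, and their median log2 difference was 0.08. Their summed level was 1.65-fold of 0 h at 12 h, 2.05-fold at 24 h and 1.78-fold at 96 h. Rps2 (1.85 ± 0.30, adjusted p = 0.000392, edgeR) and Rpl18 (1.80 ± 0.30, 0.000525) had the largest called differences of this list at 12 h. DESeq2 called 14, 14, 31 and 20 of them higher from 12 to 96 h. Ribosomal protein genes have many processed copies in the genome, so reads can be shared with them.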

How the data were processed

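The authors sorted HSCs by their ultraviolet signal, made 3′ RNASeq libraries, sequenced single-end reads, trimmed them after FastQC and aligned them to the mouse genome GRCm38.p6 (mm10). The submitters' processing notes name STAR and StringTie. Which program counted reads, whether by strand, and how multiply mapped reads were treated are not given in the sources used here. The values are raw counts per gene, deposited by the authors as one table of 19 samples, with no column left out. Groups are the culture times of the labels. The study's methods describe the samples of a timepoint as independent repeats, each made of technical repeats. Whether each came from its own animal is not given in the sources used here.

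Genes were filtered (filterByExpr), scaled by TMM and tested with edgeR 4.0.16 in R 4.3.3 (quasi-likelihood F test, 1 fit of 19 samples, culture time only), with Benjamini-Hochberg adjustment over 15138 genes. Calls needed an adjusted p under 0.1 and a fold above 2. The prior count was 2 and the floor 3 counts. Total counts ranged from 2073171 to 7690892, so 3 counts stood for 0.386 to 1.51 CPM, and intervals cover counting error only. Alternatives were DESeq2 1.42.0, other scalings, filters and call rules, thinning, a date covariate, a replicate block, fits of the compared groups alone and fits without each sample. The replicate numbers come from the labels, which also give isolation dates, replicates 1 and 3 sharing one. Deviations from the time means correlated on average at 0.0143 between samples of the same number (51 pairs, -0.072 to 0.0821) and at -0.00704 between others (103 pairs). The edgeR fit and call rule were tested on simulated counts for 12 h and 96 h against 0 h. Near copies were searched among annotated transcripts with blastn 2.17.0. Promoters are RefSeq's (GRCm38.p6), and gene positions GENCODE's (GRCm38).

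All 35 genes are named. Values in every sample are given for Myc, for the 2 genes of highest mean CPM in each role, and for others where a result turns on them. From the other lists the 2 largest called differences in each direction at 12 h against 0 h are named. The genes and lists were chosen with earlier results of these data known.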

Additional observations from a re-analysis of the deposited data

How the results depend on the processing

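The counts of the 35 genes called in the 7 comparisons (3, 6, 12, 18, 24 and 96 h against 0 h, higher, and 96 h against 12 h, lower) were 11, 25, 27, 25, 21, 11 and 21, and stayed within 1.5 times of these under every alternative except 1 omission. DESeq2 gave 13, 28, 32, 28, 22, 9 and 22, and the replicate block 10, 24, 27, 25, 19, 10 and 21. Fits of the compared groups alone, which ended 16 calls, 7 of them at 24 h (Nob1, Nolc1, Nop56, Ddx18, Utp20, Bop1 and Polr1a), gave 9, 21, 31, 26, 16, 8 and 22. Scaling by library size gave 9, 25, 27, 27, 24, 13 and 21. Leaving out the mitochondrial genes, added after the data had been seen, gave 13, 25, 27, 25, 20, 11 and 21. Leaving out 1 sample gave 8 to 12 at 3 h, 19 to 26 at 6 h, 25 to 29 at 12 h, 22 to 26 at 18 h, 14 to 22 at 24 h, 6 to 12 at 96 h and 20 to 22 for 96 h against 12 h, with 6 at 96 h without the 0 h sample of replicate 2. Of the 141 calls, 96 held in every fit that left out 1 sample. The replicate block took the calls of Nop56 at 3 h, Polr1c at 6 h, Dkc1 and Bop1 at 24 h and Rrp9 and Gar1 at 96 h, added Nob1 at 96 h (as did DESeq2 and both other scalings) and changed no other call of the 35 genes in these comparisons. DESeq2 did not call Npm1, Mybbp1a or Gar1 at 96 h.

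Some differences changed sign. Ddx18 at 3 h came to 0.045 with the replicate block, 0.027 with the compared groups alone and 0.0056 without mitochondrial genes, and Utp20 at 3 h to 0.16 with the block. Nop10 at 18 h was 0.18 under library size scaling. Rrs1 at 96 h was 0.14 under that scaling, 0.031 under upper quartile scaling, 0.0024 with the 10 CPM filter, 0.044 with the block, 0.0098 with the date and 0.016 after thinning. Over omissions of 1 sample, ranges that crossed 0 at 3 h were -0.49 to 0.37 for Bysl, -0.26 to 0.12 for Ddx18, -0.67 to 0.26 for Dkc1, -0.086 to 0.75 for Fbl, -8.36 to 9.48 for Heatr1, -0.70 to 0.79 for Nhp2, -0.016 to 0.85 for Nip7, -4.81 to 7.73 for Nle1, -0.57 to 10.74 for Noc2l, -0.32 to 1.60 for Pes1, -0.10 to 0.97 for Rrp1b and -0.74 to 1.03 for Utp20. At 96 h they were -0.35 to 0.12 for Nip7, -4.74 to 6.79 for Nle1, -1.365 to 10.85 for Noc2l, -0.69 to 0.19 for Rrp1b, -0.12 to 0.063 for Rrs1, -0.10 to 1.73 for Utp20 and -0.040 to 0.65 for Wdr43. Bysl ranged from -0.71 to 0.16 at 6 h, -0.11 to 0.77 at 12 h, -0.67 to 0.24 at 18 h and -0.86 to 0.062 at 24 h, Nop10 from -0.014 to 0.68 at 12 h and -0.41 to 0.22 at 18 h, and Bop1 from -0.64 to 0.051 at 96 h against 12 h. The differences of Heatr1 at 3 h (1.07) and Nle1 at 3 h (2.91) and 96 h (1.94) were not near 0. Of the changed values, that of Heatr1 at 3 h without the 3 h sample of replicate 3 was called lower (-8.36, adjusted p = 0.018, edgeR) and the others were not called. The cause was not tested.

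Scaling by library size moved the median of all genes by 0.232 at 18 h, 0.271 at 24 h and 0.144 at 96 h, and DESeq2 by -0.232, -0.233, -0.238, -0.218 and -0.149 from 6 to 96 h. The median of the 35 genes at 12 h was 2.87 and 2.52 there. Of all genes called, the share higher was 75.1%, 61.6% and 59.4% at 3, 6 and 24 h. It was 63.4%, 47.7% and 47.7% at 3, 6 and 24 h by DESeq2, 71.5% at 24 h by library size, and 40.9% at 24 h with the compared groups alone. Depth limits the genes with few counts at 0 h (Polr1b, Nle1, Rrp9 and Rrp12), whose folds are bounds or have wide errors, and 2 samples at 0 h and at 24 h limit each comparison with them.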

Other observations

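The MYC network, the family of proteins that pair with Max or compete with Myc for it, was read from 11 tested genes. At 12 h against 0 h 1 of them, Max, was called higher and Mxd4 was called lower. Among all genes tested 8.6% were called higher and 9.1% lower there, so 1 of 11 in each direction lies near these shares. Max, the partner of Myc, had 136 and 151 CPM at 0 h and 269, 320.2 and 351 at 12 h, a log2 fold change of 1.13 ± 0.27 (adjusted p = 0.00982, edgeR) that DESeq2 did not call. Mxd4, a Max partner known as an antagonist of Myc, had 326 and 395 CPM at 0 h, 28.8, 32.4 and 38.9 at 12 h and 157, 226 and 330.5 at 96 h. Its 12 h samples lay far below those of both other timepoints, with a log2 fold change of -3.43 ± 0.43 at 12 h against 0 h (3.57e-05) and 2.83 ± 0.40 at 96 h against 12 h (0.00016). Myc over the same timepoints had 4.28 and -4.71, and a link between these courses was not tested.

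Of 27 other known target genes of MYC outside ribosome assembly, 4, 13, 19, 20, 19 and 15 were called higher than 0 h at the timepoints from 3 to 96 h. The shares of all genes were 4.19%, 6.98%, 8.6%, 7.64%, 5.65% and 5.83%. In this list 1 gene, Ldha, a lactate dehydrogenase subunit, was called lower at 6 h (-1.23, adjusted p = 0.00661, edgeR). At 96 h against 12 h 9 were lower and Ldha was higher (2.56, 5.44e-06), where 6.57% of all genes were called lower and 6.96% higher. The largest called differences at 12 h were those of Slc7a5, a subunit of the large neutral amino acid transporter (6.92 ± 0.47, adjusted p = 1.4e-07, edgeR), and Srm, spermidine synthase (4.33 ± 1.05, 0.00977). The summed level of this list was 2.92-fold of 0 h at 12 h and 1.87-fold at 96 h, while that of the 35 genes was 7.46-fold and 1.99-fold. The median log2 fold change of the list at 12 h was 2.13, against 2.76 for the 35 genes.

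Cell cycle markers had their highest summed level at 96 h. The summed level of 12 markers was 172 CPM at 0 h, where 6 of 12 had 0 counts in both samples, and between 652 and 894 CPM in the samples of 96 h. At 96 h against 12 h 7 of 12 were called higher by edgeR, namely Mki67, Top2a, Cdk1, Plk1, Birc5, Rrm2 and Mcm3, against 6.96% of all genes. DESeq2 called 5 of the 12 higher. In the same comparison edgeR called 21 of the 35 genes lower, against 6.57% of all genes. A link between these genes and the cell cycle markers was not tested.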
